A study of Homo sapiens with 4 samples.

Results

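The RNAs described here are 5 abundant noncoding RNAs made by RNA polymerase III (Pol III): 7SK (RN7SK), both main copies of 7SL (RN7SL1 and RN7SL2), the RNA of RNase MRP (RMRP) and the RNA of RNase P (RPPH1). They were chosen by symbol in GENCODE release 29, where the 5 symbols match 6 of the 58174 gene rows, because RMRP is annotated by 2 overlapping entries. RNA was sequenced from 293FT, an established human embryonic kidney line chosen for fast growth, in which SV40 large T antigen is expressed. The groups were 2 libraries with wild-type NIPBL (labelled NIPBLwt) and 2 with mutant NIPBL (NIPBLmut), and no treatment is named for either group. NIPBL is the protein that loads cohesin onto chromosomes. The labels give neither the kind of mutation, nor the number of clones, nor whether separate cultures were used. Per the labels' protocols, ribosomal RNA was removed from total RNA and the libraries were strand-specific.

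7SK forms a ribonucleoprotein that holds P-TEFb, the kinase that releases paused RNA polymerase II, in an inactive state through the HEXIM proteins. 7SL is the scaffold of the signal recognition particle, which directs ribosomes that make secreted and membrane proteins to the endoplasmic reticulum. RMRP and RPPH1 are the RNA parts of related enzymes that share most of their proteins: RNase MRP acts on precursor ribosomal RNA and RNase P trims the leader of precursor transfer RNA. 7SK, RMRP and RPPH1 are made from promoters that lie wholly upstream of the gene, whereas 7SL also needs elements inside it.

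The transcript sequences matter here because they set how reads can be told apart. Those of 7SK, RMRP and RPPH1 are printed from GENCODE release 29 (GRCh38), 5′ to 3′, RN7SK and RPPH1 from base 1 to 300 and RMRP whole. In 7SK the capitals mark GATC, in RNA the GAUC motif known from the hairpin that HEXIM binds. It starts at positions 12, 41 and 63, counted from the 5′ end, and reads the same on both strands. At least 1 GATC stands in the first 328 bases of 60.1% of all annotated transcripts of that length or more. In RMRP they mark the bases of the 268-base entry that the 264-base entry lacks, and RPPH1 is shown without capitals.
RN7SK: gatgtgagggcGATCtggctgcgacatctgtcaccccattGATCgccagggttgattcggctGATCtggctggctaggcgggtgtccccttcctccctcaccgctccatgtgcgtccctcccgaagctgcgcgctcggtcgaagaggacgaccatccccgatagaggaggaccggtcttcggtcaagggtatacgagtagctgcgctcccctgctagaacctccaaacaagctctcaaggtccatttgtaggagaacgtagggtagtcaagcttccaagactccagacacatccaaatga
RMRP: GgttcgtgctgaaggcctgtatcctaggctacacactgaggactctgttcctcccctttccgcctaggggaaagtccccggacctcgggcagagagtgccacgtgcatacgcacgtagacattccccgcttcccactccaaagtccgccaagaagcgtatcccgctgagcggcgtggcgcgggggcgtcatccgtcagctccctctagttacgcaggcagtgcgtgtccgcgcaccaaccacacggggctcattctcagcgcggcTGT
RPPH1: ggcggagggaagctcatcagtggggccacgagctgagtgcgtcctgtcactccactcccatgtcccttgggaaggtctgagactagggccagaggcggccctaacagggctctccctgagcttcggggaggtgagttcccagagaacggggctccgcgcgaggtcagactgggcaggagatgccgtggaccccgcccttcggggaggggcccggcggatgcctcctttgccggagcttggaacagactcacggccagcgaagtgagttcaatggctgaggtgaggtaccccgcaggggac

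RN7SL1 and RN7SL2 were identical at 295 of 300 aligned bases. The 264-base RMRP entry lies wholly inside the 268-base entry. All 263 windows of 66 bases in RN7SK and all 268 in RPPH1 also occurred in another annotated gene on the same strand. Of the 234 windows of RN7SL1, 140 were also in RN7SL2 and none was unique to its row, while 36 of the 235 windows of RN7SL2 were unique. RMRP had 4 unique windows of 203 in the longer entry and none of 199 in the shorter. The deposited effective lengths of these rows are 65 bases shorter than the lengths, the difference that reads of 66 bases would give. Counts for single rows therefore rest on the estimates by which RSEM divides shared reads, and the sums over a place are less open to that division.

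Apart from the RMRP pair and the 7SL pair, whose rows share windows with each other, the competing rows took few reads. The second 7SK entry (RF00100) had at most 147.63 expected counts per library, and AL139099.4, a second entry at the place of RN7SL1 (where RPS29 also lies on the opposite strand), at most 1857.83. AL355075.4, which spans RPPH1 on the same strand, had between 10333.57 and 15464.63. The 3rd 7SL gene, RN7SL3, had between 38347.88 and 42588.19. RN7SL1 and RN7SL2 together made up between 98.5% and 98.6% of the counts of the 680 rows with 7SL names, and RN7SK at least 99.9% of the 294 rows with 7SK names. In RMRP the shorter entry held 73.2% and 70.9% of the counts of both in wild type and 75.4% and 75.0% in mutant.

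The 4 libraries held between 31545743 and 33161120 expected counts (reads per gene as estimated by RSEM). RN7SL1, RN7SL2, RN7SK and RPPH1 ranked 1, 2, 3 and 4 by count in every library and the 264-base RMRP row ranked 6. NIPBL itself was at 41.8 and 44.4 CPM (CPM are counts scaled to a common library size, here by the trimmed mean of M values, TMM) in wild type and at 61.0 and 62.0 CPM in mutant (log2 fold change 0.51, SE 0.11, edgeR adjusted p = 0.057), which does not check the labels because the kind of mutation is not given. The wild-type pair lay further apart than the mutant pair, with a chi-square per gene of 44.6 against 3.97. Of the 6 markers of the kidney line, VIM, KRT8, KRT18 and LIN28B were above 50 CPM in every library, and PAX2 was under 1 CPM in all. NEFM had 2257 and 1908 counts in wild type and 45 and 29 in mutant, which is under 2 CPM. KRT8 went the other way, with 1854 and 1826 counts in wild type and 3742 and 3612 in mutant. Among markers of blood, liver and fibroblasts, CD3E had 0 counts in all 4 libraries, PTPRC at most 2, DCN at most 7, and the highest was COL1A1 with 262. PTPRC, ALB, APOA1, COL1A1, DCN and LUM had more counts in both mutant than in both wild-type libraries, and the part of other cells in the results was not tested.

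In the mutant libraries RPPH1 fell by 37.3% and RN7SK fell by 27.3%, while 7SL and RMRP did not pass the test. By edgeR's quasi-likelihood test 2 of the 6 rows passed, both lower in mutant, with p-values adjusted by Benjamini-Hochberg over all 18984 tested genes and called under 0.05. DESeq2 and limma-voom made the same 2 calls. Over all tested genes 2.1% were called lower and 3.71% higher, or 5.81% in either direction. Very abundant genes leaned down as a class: of the 64 tested genes with at least 1000 CPM, a level chosen after the values were seen and one that includes all 6 rows, 12 or 18.8% were called lower and 1 higher. Their median log2 fold change was -0.29, against -0.01 over all tested genes. In bulk RNA fewer copies per cell and a larger amount of all other RNA cannot be told apart, so every level here is relative to the rest of the library.

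**Figure D1:**
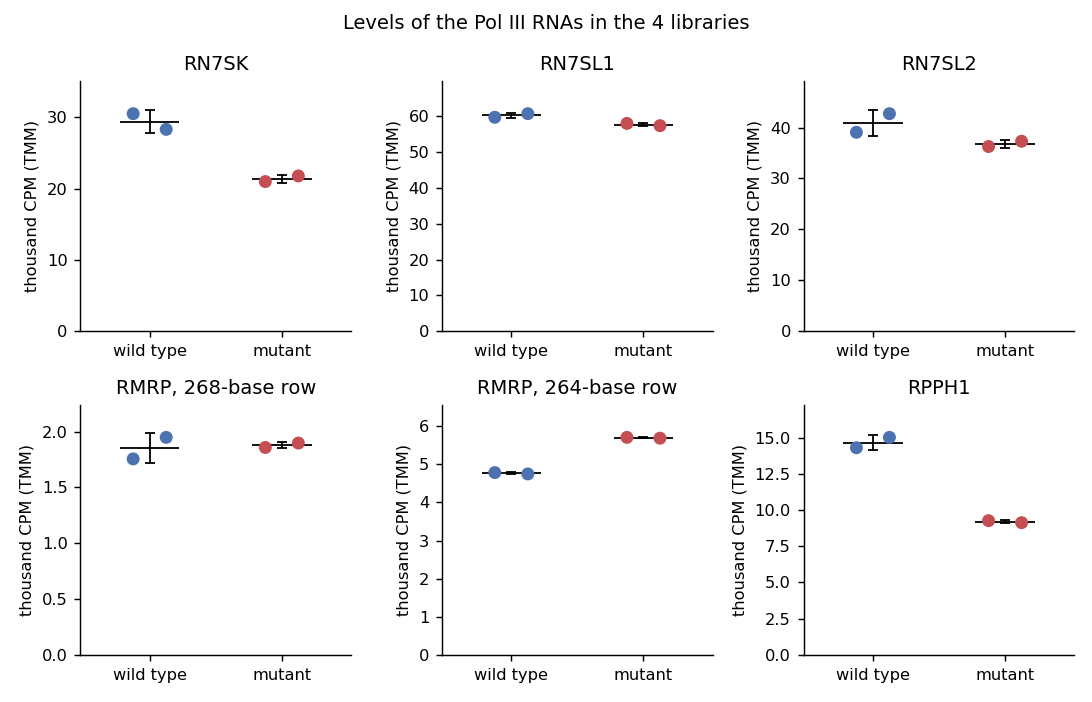
TMM-scaled CPM, on an axis from 0 that is marked in units of 1000 CPM, of the 6 rows in each library (points), with the mean (line) and SD (bar) of the 2 libraries of a group. RPPH1 and RN7SK sit lower in both mutant libraries, and the 268-base RMRP row is the one whose groups overlap.

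RPPH1 (ENSG00000277209, chromosome 14, 20343075 to 20343407, minus strand) had 443692 and 448746 counts in wild-type replicates 1 and 2 and 313273 and 317835 in mutant replicates 1 and 2. In TMM-scaled CPM these were 14302 and 15019 against 9268 and 9130. Both mutant libraries were below both wild-type libraries, as they were at 30.8% of all tested genes. The mean went from 14660 ± 507 to 9199 ± 97.3 CPM (SD, n = 2 each), a log2 fold change of -0.67 (SE 0.09, edgeR adjusted p = 0.0294). Among the 17 alternatives that kept the 4 libraries, the sums of rows could hardly move the call. It held in all 17, with log2 fold changes from -0.69 to -0.46. It was lost without mutant replicate 1 (-0.69, adjusted p = 0.16) or replicate 2 (-0.66, adjusted p = 0.219), fits whose spread comes from the wider wild-type pair alone.

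Summing AL355075.4 with RPPH1 left the log2 fold change at -0.67 (edgeR adjusted p = 0.0291). PARP2, a poly(ADP-ribose) polymerase gene, starts 175 bases from RPPH1 on the opposite strand, and both genes are known to be read from 1 shared promoter region. Its levels were 34.8 and 31.1 CPM in the wild-type pair, against 38.8 and 42.3 CPM in the mutant pair, which gave a log2 fold change of 0.30 (SE 0.12, edgeR adjusted p = 0.178). The 27 tested protein-coding genes nearest RPPH1, up to 25 on each side, had a median of 0.06, and none of them was called.

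RN7SK (ENSG00000283293, chromosome 6, 52995621 to 52995948, plus strand) had 947320 and 846550 counts in wild type and 710015 and 758708 in mutant. The TMM-scaled values were 30536 and 28332 CPM in the wild-type pair, against 21005 and 21795 CPM in the mutant pair, again with no overlap. The mean went from 29434 ± 1558 to 21400 ± 558 CPM, a log2 fold change of -0.46 (SE 0.09, edgeR adjusted p = 0.0455). This call stood close to the threshold and held in 9 of the 17 alternatives that kept every library. These 9 include the sums of 7SL copies, RMRP rows, families and overlapping rows, which left the RN7SK row unchanged or nearly so. Such sums could hardly move the call. The fold change stayed negative in all 21 alternatives. With total counts it was -0.29 (adjusted p = 0.172), and on log2(TPM + 1) with limma -0.26 (adjusted p = 0.0959). The call was also lost with a replicate block, which is not counted among the 17 (edgeR adjusted p = 0.0691). Without mutant replicate 1 (-0.44) or replicate 2 (-0.49) it was lost as well. The 50 tested protein-coding genes around RN7SK had a median of 0.09, with none called lower and 3 higher. The nearest, GSTA4, had 0.40 (edgeR adjusted p = 0.142).

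7SL was the most abundant of these RNAs and its fold change did not pass the test. RN7SL1 (ENSG00000276168, chromosome 14, 49586580 to 49586878, plus strand) had 59700 and 60707 CPM in the wild-type pair, against 57980 and 57358 CPM in the mutant pair. RN7SL2 (ENSG00000274012, chromosome 14, 49862550 to 49862849, minus strand) had 39058 and 42721 CPM in the wild-type pair, against 36269 and 37306 CPM in the mutant pair. The groups did not overlap at either copy, as at 63.2% of all tested genes, but the gaps were small. The test gave a log2 fold change of -0.06 (SE 0.07, edgeR adjusted p = 0.601) for RN7SL1 and -0.15 (SE 0.09, adjusted p = 0.288) for RN7SL2. Both signs turned with total counts, to 0.11 and 0.02, and on TPM, to 0.13 and 0.04, none of them called by edgeR or limma. With both copies summed to 1 row the value was -0.10 (SE 0.07, edgeR adjusted p = 0.404). The copies kept their proportion within a narrow range, since RN7SL1 made up 60.5% and 58.7% of the pair in wild type and 61.5% and 60.6% in mutant. The protein-coding genes around them, 50 each, had medians of -0.11 for RN7SL1 and -0.15 for RN7SL2, and none was called.

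RMRP (chromosome 9, minus strand) has a 268-base row (ENSG00000269900, 35657751 to 35658018) and a 264-base row (ENSG00000277027, 35657754 to 35658017). The longer row had 1755 and 1948 CPM in the wild-type pair, against 1858 and 1897 CPM in the mutant pair, where the groups overlapped (log2 fold change 0.02, SE 0.11, edgeR adjusted p = 0.919). The shorter row had 4783 and 4747 CPM in the wild-type pair, against 5706 and 5685 CPM in the mutant pair, with no overlap. This gave a log2 fold change of 0.26 (SE 0.09, edgeR adjusted p = 0.136), which was not called. Since the division between the rows is an estimate, the sum is the firmer measure: 6616 ± 111 CPM in the wild-type libraries, against 7573 ± 12.7 CPM in mutant, with a log2 fold change of 0.19 (SE 0.09, edgeR adjusted p = 0.208). The shorter row had 0.43 with total counts (edgeR adjusted p = 0.0656) and passed on log2(TPM + 1) with limma, at 0.45 (adjusted p = 0.0351). The 50 protein-coding genes around RMRP had a median of -0.21, with 3 called lower and 1 higher. The nearest, CCDC107, had -0.29 (edgeR adjusted p = 0.392).

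Ratios between these RNAs within a library do not depend on library scaling. RPPH1 over RMRP, both rows summed, was 2.19 and 2.24 in the wild-type libraries and 1.23 and 1.20 in the mutant libraries. The ratio of the RNase P to the RNase MRP RNA was thus lower in mutant by a factor of 0.548, with replicates of a group closer to each other than to the other group. RN7SK over 7SL, both copies summed, was 0.309 and 0.274 in wild type and 0.223 and 0.230 in mutant, a factor of 0.778. RPPH1 over 7SL went from 0.145 ± 0.000277 to 0.0974 ± 0.00133, a factor of 0.672. RMRP over 7SL went the other way, from 0.0655 ± 0.00104 to 0.0802 ± 0.000115, a factor of 1.22 (SD, n = 2 each). No test was made on these ratios. A ratio shows that 2 RNAs changed unequally and not which of them changed.

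**Figure D2:**
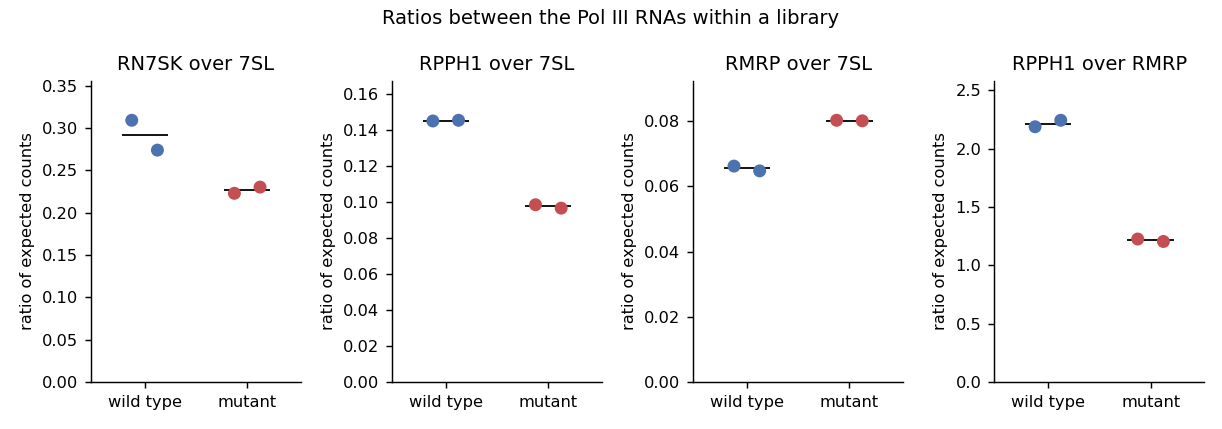
Ratio of expected counts, on an axis from 0, between Pol III RNAs in the 4 libraries (points) with group means (lines), where 7SL is RN7SL1 plus RN7SL2 and RMRP is both rows. RPPH1 over RMRP lies at 2.19 and 2.24 in wild type and at 1.23 and 1.20 in mutant.

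The 6 rows took 14.8% and 13.8% of all expected counts in wild-type replicates 1 and 2 and 14.0% and 14.1% in mutant replicates 1 and 2. The group means of 14.3% ± 0.662 and 14.1% ± 0.117 differed by less than the wild-type spread (exact two-sided permutation test over libraries, p = 1, where the smallest p that 2 against 2 allows is 0.333). The mean share of 7SL went from 9.52% ± 0.278 to 10.0% ± 0.0564 and that of RMRP from 0.623% ± 0.0281 to 0.803% ± 0.00337. RN7SK went from 2.78% ± 0.318 to 2.27% ± 0.0649 and RPPH1 from 1.38% ± 0.0377 to 0.975% ± 0.00786. The makeup of that sum differed more than the sum itself: RN7SK and RPPH1 gave 19.4% and 9.66% of the summed counts in wild type and 16.1% and 6.94% in mutant, and 7SL gave 66.6% and 71.2%.

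In TPM, the authors' abundances per effective length scaled to 1 fixed total per library, the same rows weighed far more. RN7SL1 had 198266 and 192782 TPM in wild type and 215370 and 213432 TPM in mutant. By TPM, the scale on which levels of different genes can be compared, the order in every library was RN7SL1, RN7SL2, RN7SK, RPPH1, the 264-base and the 268-base RMRP row, and no neighbours in this order overlapped over the libraries. Together the 6 rows held 48.5% and 47.4% of TPM in wild type and 48.2% and 48.6% in mutant. That is 3.28 to 3.45 times their share of counts. Their effective lengths lay between 199 and 268 bases, against a count-weighted mean over all rows of 1959 to 2024 bases.

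**Figure D3:**
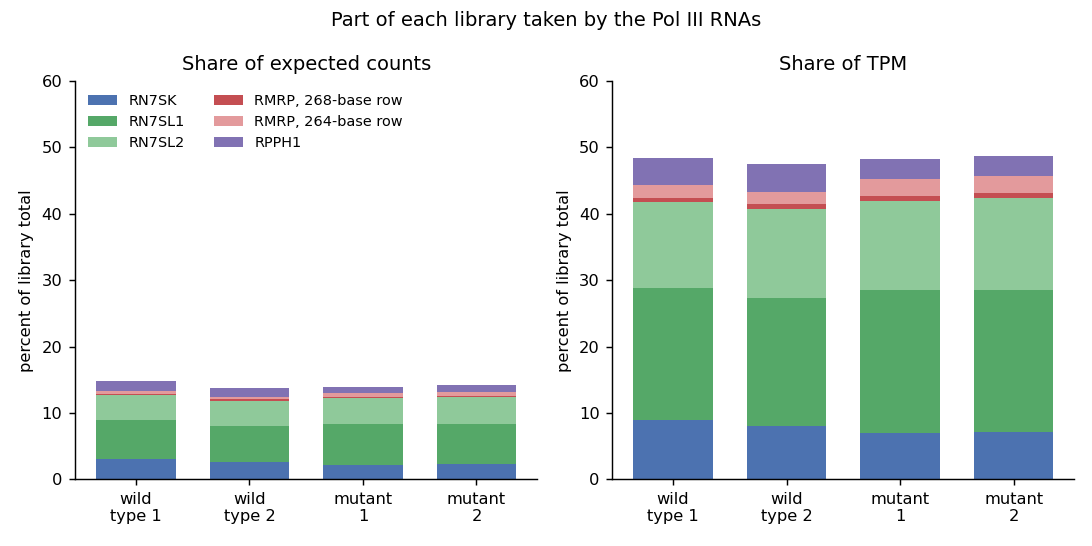
Percent of the library total held by each of the 6 rows, stacked, in expected counts (left) and in TPM (right), for the 2 wild-type and 2 mutant libraries. The stacks reach 13.8% to 14.8% of counts and 47.4% to 48.6% of TPM, and 7SL is the largest part of each.

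These shares bear on library scaling in 2 different ways. Every other gene's TPM stood below its value without these rows, which would be 94.0% and 90.3% higher in wild type and 93.0% and 94.7% higher in mutant. Because that factor was nearly the same in both groups, leaving the rows out moved other genes' mutant over wild-type TPM by 0.013 on the log2 scale. On log2(TPM + 1), where the added 1 weighs less once TPM rise, the move was larger. There the median over all tested genes went from 0.124 to 0.158, and the genes called by limma from 937 to 997. In total counts the other genes' values would be 16.0% to 17.3% higher without the rows, with a shift of -0.0039 between groups on the log2 scale. TMM, which trims extreme genes before it compares libraries, gave factors of 0.984, 0.902, 1.06 and 1.06 with all tested genes and 0.991, 0.897, 1.06 and 1.06 without these rows (wild type 1 and 2, mutant 1 and 2). Leaving them out shifted the scaling between groups by -0.0013 on the log2 scale, and 1096 of the 1103 calls over all genes were kept. RPPH1 stayed at -0.67 and RN7SK at -0.46, both called.

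Total counts, TPM, upper-quartile scaling and the stricter filter moved the members more. With total counts the median over all tested genes went to 0.17, and on log2(TPM + 1) to 0.12. Set against that median, RPPH1 lay at -0.67 with TMM, -0.67 with total counts and -0.60 on TPM, and RN7SK at -0.45, -0.46 and -0.39. RN7SL1 lay at -0.06, -0.06 and 0.01, and the 264-base RMRP row at 0.26, 0.26 and 0.33. Each of these rows had the same effective length in every library, so a change of scale moves them all by about the same amount. The order of the 4 RNAs therefore had to be the same on all 3 scales and is no separate support.

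**Figure D4:**
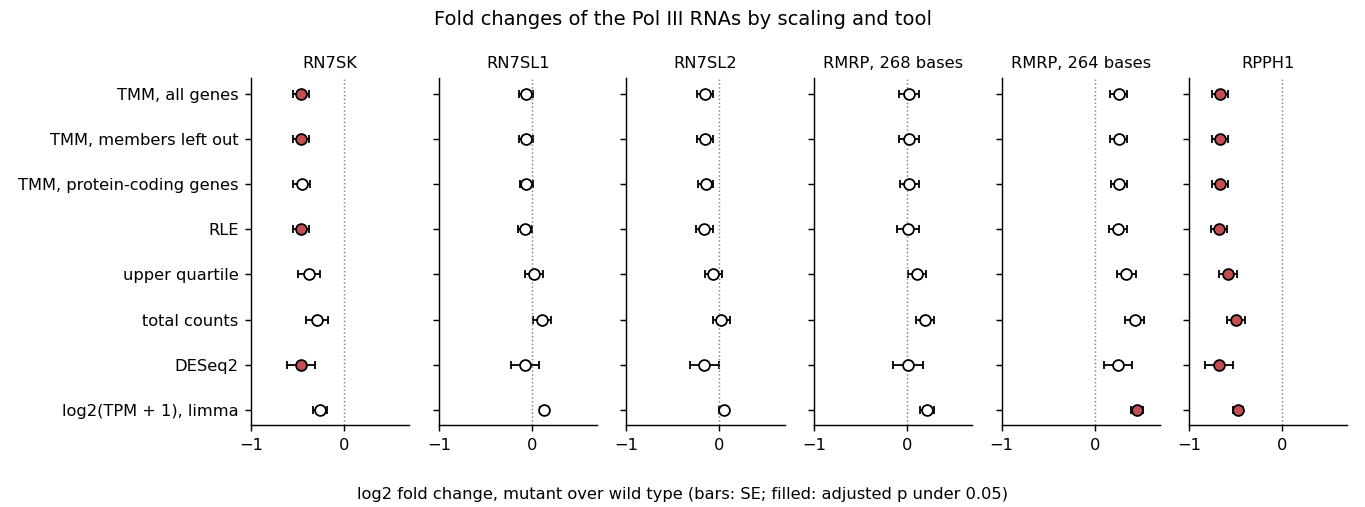
Log2 fold change, mutant over wild type, with its SE for the 6 rows under 8 choices of scaling and tool, filled where the adjusted p is under 0.05. RPPH1 is filled in every row of the plot, and RN7SL1 and RN7SL2 cross 0. RN7SK runs from -0.47 to -0.26 and is filled in 4 of 8, each of them at -0.47 or -0.46.

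The proteins that work with these RNAs were examined by the same fit over all genes. Of all tested genes 29.8% had an unadjusted p under 0.05, DESeq2 called 6.35% lower and limma-voom 2.31%. Of 10 genes for the 7SK ribonucleoprotein and P-TEFb with its partners, none was called by edgeR, though 4 passed at an unadjusted p under 0.05, and DESeq2 as well as limma-voom called 1 lower. MEPCE, which caps and stabilises 7SK, had 57.0 and 78.7 CPM in the wild-type pair, against 35.5 and 36.9 CPM in the mutant pair (log2 fold change -0.91, SE 0.18, edgeR adjusted p = 0.0511). It passed in 8 of the 17 alternatives that kept every library, among them DESeq2 (-0.92, adjusted p = 0.000533) and limma-voom (-0.89, adjusted p = 0.0497), and not on TPM. HEXIM2, which inhibits P-TEFb on 7SK, had 0.64 (edgeR adjusted p = 0.096), AFF1, a scaffold of the super elongation complex, -0.48 (adjusted p = 0.0799) and CDK9, the P-TEFb kinase, 0.002 (adjusted p = 0.995). The list median was -0.17.

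Of 8 genes for signal recognition particle proteins and the receptor none was called by edgeR or limma-voom, 1 passed at an unadjusted p under 0.05, while DESeq2 called 1 lower. SRP9, which binds the Alu domain of 7SL, went from 499 ± 54.7 to 323 ± 18.9 CPM (log2 fold change -0.63, SE 0.13, edgeR adjusted p = 0.0553). SRP54, which binds signal sequences, had 0.11, SRP68 0.15 and SRP72 -0.14. The list median was -0.07.

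The 11 genes for proteins of RNase P and RNase MRP all had negative log2 fold changes, from -1.52 to -0.04 with a median of -0.32, where 50.4% of all tested genes were negative. In all 11, wild-type replicate 2 was above replicate 1. In 7 of them both mutant libraries were below both wild-type libraries, which was so at 30.8% of all tested genes. RPP30 was not among the 7, with 49.0 and 73.1 CPM in the wild-type pair and 55.2 and 53.1 CPM in the mutant pair. Similar counts stood in other lists: 5 of 10 for 7SK, 8 of 18 Pol III subunits and 9 of 20 Pol III factors, with 2 of 8 for the signal recognition particle. Negative log2 fold changes there numbered 8, 15, 13 and 5. These counts are not particular to RNase P and RNase MRP. RPP25 alone was called by edgeR, and DESeq2 called 3 lower. RPP25, a subunit that binds the RNA of both enzymes, had 56.8 and 85.3 CPM in the wild-type pair, against 26.1 and 23.4 CPM in the mutant pair (log2 fold change -1.52, SE 0.22, edgeR adjusted p = 0.0322). It kept its call in all 21 alternatives, with -1.80 without wild-type replicate 1 and -1.20 without wild-type replicate 2. POP1, the largest protein of both enzymes, had 25.8 and 54.8 CPM in the wild-type pair, against 19.0 and 14.7 CPM in the mutant pair, a log2 fold change of -1.26 (SE 0.37, edgeR adjusted p = 0.0987). Leaving out wild-type replicate 2 gave -0.62, and leaving out replicate 1 gave -1.72.

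Pol III itself had 18 subunit genes, none of them called by edgeR or limma-voom, with a median of -0.26. Of these, 9 passed at an unadjusted p under 0.05, while DESeq2 called 1 lower. Over all tested genes the shares by these 2 criteria were 29.8% and 6.35%. POLR3D had -0.42 (edgeR adjusted p = 0.0885) and POLR2L, a subunit shared by all 3 nuclear polymerases, -1.12 (adjusted p = 0.0648), while POLR3C had 0.44 and the shared subunit POLR2H 0.44, which was 0.26 without wild-type replicate 1. Without wild-type replicate 2 POLR2L was at -0.73. Of 20 genes for Pol III factors none was called by edgeR or limma-voom, 6 passed at an unadjusted p under 0.05, while DESeq2 called 4 lower. BRF2, the TFIIIB subunit used at upstream promoters such as those of 7SK, RMRP and RPPH1, had 19.4 and 19.5 CPM in the wild-type pair, against 12.7 and 12.8 CPM in the mutant pair (log2 fold change -0.61, SE 0.13, edgeR adjusted p = 0.0552). SSB, the La protein that binds the ends of new Pol III transcripts, had 252 and 401 CPM in the wild-type pair, against 156 and 141 CPM in the mutant pair (-1.13, SE 0.24, edgeR adjusted p = 0.0552). BRF1, used at promoters with internal elements, had 0.10 and SNAPC1, part of the factor that binds upstream promoters, 0.19. The factor list had a median of -0.11, and in 16 of the 20 factor genes, 16 of the 18 subunit genes, 9 of the 10 genes of the 7SK list and 8 of 8 of the signal recognition particle list wild-type replicate 2 was above replicate 1. The part of that replicate in the list medians was not tested. For these counts, and for that of the RNase P and RNase MRP list, no share over all tested genes was computed. They are therefore not read as particular to the lists.

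**Figure D5:**
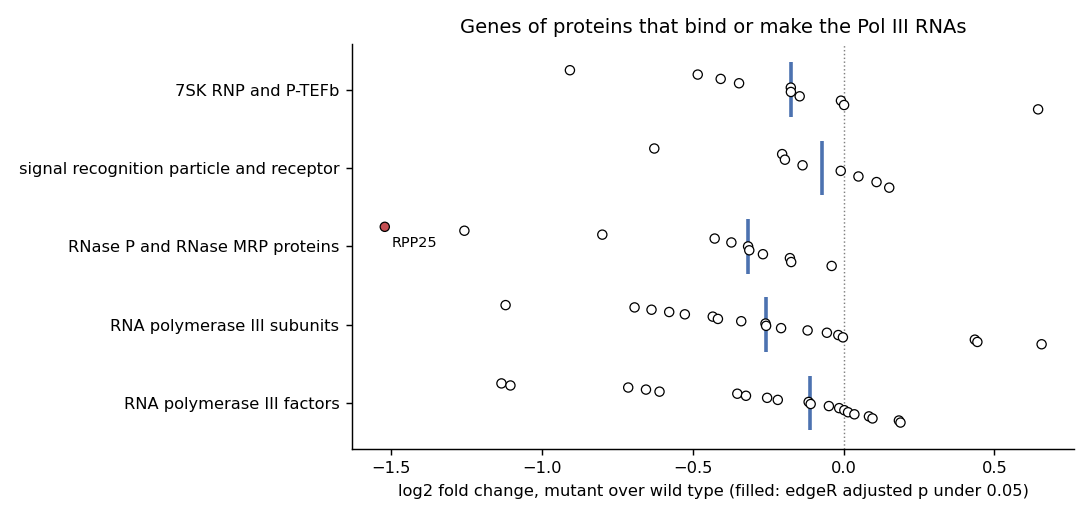
Log2 fold change, mutant over wild type, of each tested gene (points) in 5 lists of proteins that bind or make the Pol III RNAs, with list medians (blue lines) from -0.32 to -0.07. RPP25, at -1.52, is the filled point, the gene called by edgeR.

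Other Pol III transcripts were mostly out of reach. Of 17 rows found, 5 were tested and all 5 had negative log2 fold changes, as had 50.4% of all tested genes. Their median was -0.80. By edgeR and limma-voom 1 each was called lower and by DESeq2 3, against 2.1%, 2.31% and 6.35% of all tested genes. RNY1, a Y RNA that binds the RO60 protein, had 281 and 302 counts in wild type and 120 and 120 in mutant (log2 fold change -1.45, SE 0.19, edgeR adjusted p = 0.0293). Its call was lost without mutant replicate 1 (adjusted p = 0.0728) or replicate 2 (adjusted p = 0.0954). RNY3 had -0.80 (edgeR adjusted p = 0.0571), RNU6ATAC -0.74 (adjusted p = 0.139) and RN7SL3 -0.18 (adjusted p = 0.359). The Alu-like BCYRN1 had -0.84 (edgeR adjusted p = 0.141). Its wild-type pair lay far apart, at 70.9 and 135 CPM, against 56.5 and 58.7 CPM in the mutant pair. The 5 listed U6 genes and both listed 5S genes had 0 counts in every library, where a count of 0 allows up to 3 counts per library, and the 4 vault RNAs had at most 4 counts. Y RNAs, U6, 5S and BCYRN1 have many near-identical copies, which makes their counts uncertain.

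Small nuclear RNAs made by RNA polymerase II were set beside them, though their effective lengths of 51 to 126 bases are all below those of the 6 rows. Of 14 tested rows none was called by edgeR, DESeq2 or limma-voom, and none had an unadjusted p under 0.05. The median log2 fold change was -0.07, with RNU2-2P at -0.19, RNU4-2 at 0.09, RNU5E-1 at -0.41 and RNU5B-1 at 0.22. The rows RNU1-1, RNU1-2, RNU1-3, RNU1-4 and RNVU1-18 carried the same count in each library and are not independent. Whether Pol III RNAs differed from these as a class was not tested. The mitochondrial and 5.8S ribosomal rows took 0.0144% to 0.0180% of counts per library. No row was found under the 18S, 28S and 45S symbols looked for, so that share leaves them out. MT-RNR2 had 0.24 and RNA5-8SN2 -0.28, and none of the 6 tested ribosomal rows had an unadjusted p under 0.05. Several of these 6 are RNA5-8SN2 entries that carried the same count in each library and are not independent.

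Genes with the most similar pattern to each row were found by the root mean square distance between log2 CPM values centred over the 4 libraries, among the 8157 tested genes whose mean reached 20 CPM. The nearest to RPPH1 were TMEM131L (distance 0.0076), RIF1 (0.016) and EEF1B2 (0.016), with log2 fold changes of -0.68, -0.66 and -0.70. The nearest to RN7SK were the pseudogene AL365357.1 (0.0086) and the ribosomal protein genes RPL8 (0.011) and RPL9 (0.015). For RN7SL1 they were NDUFS4, ERGIC1 and ERBIN (0.0025 to 0.0089), and for RN7SL2 H2AFV, CSNK1E and DPY19L3 (0.006 to 0.0097). For the 268-base RMRP row they were CEP295, ARHGAP12 and SDE2, and for the 264-base row AP3S2, ZNF12 and WNK1. With 4 libraries such likeness is a description of these samples.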

How the data were processed

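The authors deposited 1 table per library with expected counts, TPM and FPKM per gene, per the file headers; FPKM were not used. STAR 2.7.3a, RSEM 1.3.1 and hg38 are named in the submitters' processing notes. The annotation release and the strand setting are, in the sources used here, not given. Of 58174 gene identifiers 57836 matched GENCODE 29. Expected counts were rounded, filtered with filterByExpr, scaled by TMM and tested with robust quasi-likelihood in edgeR 4.0.16 (R 4.3.3). DESeq2 1.42.0, limma 3.58.1 (log2 of TPM + 1), other scalings and filters, effective length offsets, a replicate block and leaving out each library were alternatives. Sums of overlapping rows, of families, total counts without the members and rescaled TPM were added after seeing the data. On simulated data with known changes the fit was checked first. It called 0.415% of changes of 1.25-fold, 6.1% of 1.5-fold, 44.5% of 2-fold and 81.8% of 4-fold, placed at random among the tested genes. A row or gene that was not called is therefore not shown to be unchanged. The simulation gave each gene the same spread in both groups, whereas the wild-type pair lay further apart than the mutant pair. Its rates may thus differ from those in the data. The members and the 8 related lists were chosen with earlier results of these data known. Of each list, the text names every called gene and up to 2 genes per direction by smallest p, and 3 similar genes per member. P-values reflect nothing but the spread among these 4 samples, and that spread may be technical. The 7SL transcript sequences and 1 marker gene are not reported here.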

Additional observations from a re-analysis of the deposited data

How the results depend on the processing

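The RN7SK log2 fold change missed the threshold with upper-quartile scaling (-0.38), total counts (-0.29; -0.30 without the members), scaling by protein-coding genes (-0.46, adjusted p = 0.0507), no filter (-0.47), the stricter filter of 1 CPM in every library (-0.41), limma-trend on TPM (-0.26; -0.25 after rescaling without the members) and the replicate block (-0.46, adjusted p = 0.0691). In these settings 1 row, RPPH1, was called lower instead of 2. The 264-base RMRP row passed on TPM (0.45) and rescaled TPM (0.47). The summed share was 47.9% and 48.4% in TPM, against 14.3% and 14.1% of counts.

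Leaving out 1 library at a time gave -0.52 to -0.42 for RN7SK, -0.72 to -0.64 for RPPH1, -0.23 to -0.089 for RN7SL2 and 0.25 to 0.26 for the 264-base RMRP row. It left 0 to 3 rows called lower: 0 without either mutant library, since the spread then comes from the wider wild-type pair. Without 1 wild-type library the spread comes from the close mutant pair, and calls gained there are not counted as support. RN7SL2 was called without wild-type replicate 1 (adjusted p = 0.0127) and the 264-base RMRP row without either wild-type replicate. The labels do not say whether the replicate numbers pair the libraries. The replicate 1 minus 2 differences of the groups correlated at -0.059 across genes, which cannot settle this because the mutant pair differed little. The fit with the block is left out of the counts of alternatives in the text. With the block RN7SK missed the threshold, as given above, and RPPH1 passed (edgeR adjusted p = 0.0163).

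Over all genes 1103 were called, and 2500 with DESeq2, 2279 with the block, 1918 with no filter and 553 with the stricter filter. Calls were 63.8% higher ones, against 80.2% with total counts, 87.3% on TPM and 51.8% with DESeq2. Depth does not limit the members, whose lowest count in a library was 54451.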
